A study of Mus musculus with 7 samples.

Results

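Tumours injected with small extracellular vesicles (sEV) of either origin were compared with tumours injected with saline. The 4 vesicle-injected tumours, 1 given vesicles of control donor cells (Cont sEV) and 3 given vesicles of therapy-induced senescent donor cells (TIS sEV), were pooled as 1 group and set against 3 saline tumours, which together are all 7 samples of the series. Every tumour grew from 4T1-12b(luc) cells, a luciferase-carrying line of mouse mammary carcinoma, in a mammary fat pad of BALB/c mice, with the genotype label WT. Once tumours measured about 150 mm3 they received 6 injections of 50 µl directly into the tumour, 1 every other day, and all samples carry the label day 12. Donor cells for the vesicles were 4T1 cells kept for 72 h in DMSO (Cont sEV) or in 100 ng/ml nocodazole, which blocks microtubule assembly (TIS sEV), and then released for 72 h. Ages of the mice are not given in the labels, and replicates are numbered without a statement that they are separate animals, so p-values reflect sample-to-sample spread alone, and that spread may be technical. A single tumour stands for control vesicles, so what vesicles of any origin share rests on that tumour alone for the control origin. Vesicle columns of the expression table were matched to the groups by abbreviations that the labels do not spell out, and every vesicle comparison rests on that reading.

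Small extracellular vesicles are membrane particles that cells release when multivesicular bodies fuse with the cell surface, or by budding from it. Tetraspanins such as CD9 and CD81 and the ESCRT proteins that pinch membranes help to form them, and recipient cells take them up largely by endocytosis. In a tumour they reach cancer cells and also macrophages, dendritic cells and fibroblasts, which can answer with chemokines and with changes in antigen processing.

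Expression was deposited as TPM, transcript abundance corrected for transcript length. Of 55487 genes in the table, 21961 were nuclear protein-coding genes, and each library was rescaled to a total of 1000000 over these genes and divided by a size factor. These values are called scaled TPM, and the test covered the 11383 coding genes that reached 1 in 3 or more libraries. A gene could pass that filter through the vesicle tumours or the saline tumours alone. Size factors ran from 0.743 to 1.21. The lowest was that of TIS sEV replicate 2, in which nuclear ribosomal RNA took 22.9% of the deposited TPM and coding genes 28.6%, against 0.807% to 2.4% and 56.8% to 74.7% in the other 6. Across genes, which are not independent replicates, log2 values of that library correlated with the others at r = 0.893 to 0.933, and the others among themselves at 0.939 to 0.979. TIS sEV replicate 1 correlated with the saline tumours at 0.968 to 0.972, and with the other vesicle tumours at 0.922 to 0.966. Carcinoma markers were present in every tumour, with the keratin gene Krt8 between 986 and 1923 and the epithelial adhesion gene Epcam between 30.8 and 177. Mammary milk and luminal genes summed to 67.3 in the Cont sEV tumour, 0.967 to 2.1 with saline and 0.931 to 11.6 with TIS sEV. Adipocyte genes summed to 364 in TIS sEV replicate 2 and to 13.1 to 66.6 in the other 6. The part of neighbouring tissue in the differences below was not tested. In bulk RNA, fewer cells of a type and less RNA per cell cannot be told apart.

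One gene passed the test of all 4 vesicle tumours against all 3 saline tumours, which is 0.00879% of genes tested. Separation was more frequent: in 2312 genes (20.3%) every vesicle value lay on the same side of every saline value. In 1037 of these (9.11% of genes tested) the vesicle tumours were higher, and in 1275 (11.2%) they were lower. Without size factors the coding table shifted by a median of -0.34 (log2), and the same count gave 334 higher and 2160 lower, so the balance of directions depended on the scaling. With quantile normalization it gave 900 higher and 1278 lower. The distance between the nearest vesicle and saline values, the gap, had a median of 0.13 (log2) among the higher genes and 0.14 among the lower genes. It ranged from 1.8e-05 and 0.000346 for the genes just inside the rule to 2.38 and 1.45 for the widest. Under limma, 2201 genes had an unadjusted p below 0.05. The count of genes with an adjusted p below 0.05 was 77 without TIS sEV replicate 1 (55 higher), and 0 without any other single library, where 1046 to 2373 genes had an unadjusted p below 0.05.

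The 5′ ends of 3 genes with wide separation are printed here because Gm15056 alone passed the test and because Serpina3g and Ubd, among the genes with the widest gaps, held a match to the kappaB motif GGGNNTTCC. The windows searched were those of Gm15056, Serpina3g, Chchd10, Ubd, Snx21, Gstm1 and Cpxm1. Each window spans 250 bases before to 50 after the RefSeq start (GRCm38.p6): chr8:20902407-20902706 on the minus strand for Gm15056, chr12:104235897-104236196 on the plus strand for Serpina3g and chr17:37193642-37193941 on the plus strand for Ubd. Capitals mark the kappaB match and, in Serpina3g, also a match to the gamma-activated site TTCNNNGAA. They were chosen after their values were seen.
Gm15056: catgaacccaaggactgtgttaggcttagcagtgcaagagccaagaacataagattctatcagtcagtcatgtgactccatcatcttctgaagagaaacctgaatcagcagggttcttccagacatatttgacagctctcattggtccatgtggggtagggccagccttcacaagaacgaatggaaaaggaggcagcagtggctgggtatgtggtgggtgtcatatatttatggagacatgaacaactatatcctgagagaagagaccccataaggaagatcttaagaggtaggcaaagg
Serpina3g: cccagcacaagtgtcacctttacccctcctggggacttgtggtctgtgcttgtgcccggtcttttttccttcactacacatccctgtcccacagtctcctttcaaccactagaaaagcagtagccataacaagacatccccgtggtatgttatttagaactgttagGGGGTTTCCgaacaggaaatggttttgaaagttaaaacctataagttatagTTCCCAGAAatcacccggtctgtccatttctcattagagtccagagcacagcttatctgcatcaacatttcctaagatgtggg
Ubd: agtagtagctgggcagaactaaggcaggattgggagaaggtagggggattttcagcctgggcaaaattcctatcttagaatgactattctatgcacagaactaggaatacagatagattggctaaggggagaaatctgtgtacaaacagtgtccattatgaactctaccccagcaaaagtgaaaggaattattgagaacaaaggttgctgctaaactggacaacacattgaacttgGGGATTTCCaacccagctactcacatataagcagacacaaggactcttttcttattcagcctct
Both strands were searched. The kappaB letters occurred in 5.82% of 32841 RefSeq windows of the same length, in 8.83% of the 8991 tested genes with a window and in 8.28% of 821 separated higher genes with one. For all windows the share was 8.3% for the gamma-activated site and 8.56% for the interferon-stimulated response element GAAANNGAA. The Gm15056 window held none of the 3 motifs. A match is a description of the letters and does not show binding.

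Gm15056, listed by RefSeq with the synonym Defb52, a beta-defensin gene (beta-defensins are small secreted antimicrobial peptides), rose in the vesicle tumours (chromosome 8, 20900606 to 20902627, GRCm38). Its scaled TPM was 3.67, 6.25 and 2.96 in the saline tumours, 63.3 with Cont sEV, and 36.7, 94.5 and 80.3 with TIS sEV. Each vesicle tumour was above each saline tumour, with the control vesicle tumour inside the TIS range. Means were 68.7 ± 24.8 (SD, n = 4) and 4.29 ± 1.73 (n = 3), which differed by 3.69 on the log2 scale (SE 0.34, limma adjusted p = 0.0298). Across the alternatives that difference ran from 2.93 to 3.96 and its adjusted p from 0.01 to 0.305. Defensin genes lie in clusters of similar copies among which reads could be split, so its level is uncertain.

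Ccl5 and Serpina3g had the next widest gaps among higher genes with an established symbol and a mean of at least 10 in the higher group. Serpina3g encodes an intracellular serine protease inhibitor of activated leukocytes (chromosome 12, 104236245 to 104241939). It stood at 18.3, 20.3 and 20.9 with saline, 49.4 with Cont sEV and 55.6, 68.7 and 61.4 with TIS sEV. The saline values were close together and far from the vesicle values, and the log2 difference of 1.51 (SE 0.18) did not pass (limma adjusted p = 0.0579). Its family has near-identical copies, so reads could be split here too. Ccl5 (RANTES), a chemokine that attracts T cells, monocytes and eosinophils (chromosome 11, 83525778 to 83530518), was at 27.6, 32.6 and 31.4 with saline, 78.9 with Cont sEV and 82.0, 142 and 129.6 with TIS sEV. The lowest vesicle value was that of the control vesicle tumour. The log2 difference was 1.75 (SE 0.25, limma adjusted p = 0.163), and 1.17 once a trend on transcript length was removed.

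Ubd (FAT10), a ubiquitin-like modifier that sends proteins to the proteasome (chromosome 17, 37193892 to 37196095), was at 35.6, 14.4 and 29.6 with saline, 123 with Cont sEV and 71.3, 67.5 and 172 with TIS sEV. The 2 highest tumours were the control vesicle tumour and TIS sEV replicate 3. Its log2 difference was 1.98 (SE 0.40) and did not pass (limma adjusted p = 0.194, a value shared by many genes here). Chchd10, which resides between the mitochondrial membranes (chromosome 10, 75933130 to 75937747), was at 10.1, 6.49 and 8.07 with saline, 21.5 with Cont sEV and 59.6, 279.6 and 106 with TIS sEV. All vesicle tumours were higher, but the control vesicle tumour was below all 3 TIS tumours. The vesicle difference was 3.13 (SE 0.71, limma adjusted p = 0.194) and 2.54 without TIS sEV replicate 2, the highest library. Cont sEV minus TIS sEV was -2.44 (SE 0.72, limma adjusted p = 0.903).

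The other higher genes with wide gaps had varied functions. Gstm1, a glutathione transferase (chromosome 3, 108012255 to 108017973), was at 6.62, 3.33 and 3.74 with saline, 12.4 with Cont sEV and 13.1, 38.0 and 18.5 with TIS sEV, which is 1.85 on the log2 scale (SE 0.39). Snx21, a sorting nexin of endosomes (chromosome 2, 164785823 to 164793816), was even within groups, from 5.64 to 6.22 with saline and from 11.7 to 13.4 with vesicles. Its log2 difference was 0.98 (SE 0.16). Cpxm1, a secreted carboxypeptidase-like protein, averaged 87.4 ± 24.8 (n = 4) against 25.7 ± 10.2 (n = 3), and Nme2, a nucleoside diphosphate kinase with the near copy Nme1, 775 ± 275 against 313 ± 42.1. Blvrb, which reduces biliverdin, averaged 106 ± 52.9 against 43.1 ± 4.31. The remaining 6 were Ap1g2, Sh3bgrl3, Rab3il1, Dhrs1, Nabp2 and Msh5, with log2 differences of 0.78 to 1.60. All 15 stayed separated after the length trend was removed, and all but Msh5 also without size factors; none passed the limma test.

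**Figure D1:**
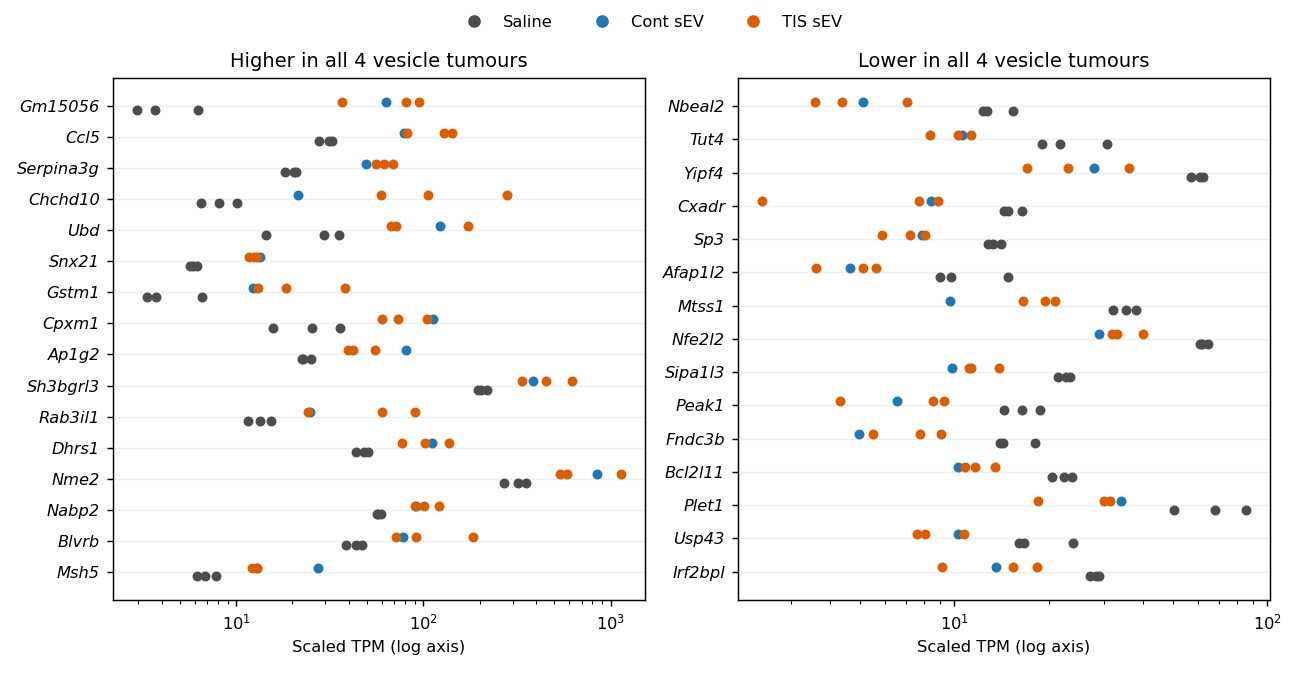
Scaled TPM (log axis) of the gene that passed the test and of the 15 higher and 15 lower genes with the widest gap, 1 point per tumour, saline in grey, Cont sEV in blue and TIS sEV in orange. No vesicle point overlaps the saline points of its gene, and Gm15056 has the widest gap of the genes drawn, from 6.25 to 36.7.

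The lower genes with the widest gaps included a transcription factor of stress defence and a promoter of apoptosis. Nfe2l2 (Nrf2), the transcription factor of the antioxidant response (chromosome 2, 75675513 to 75704641), was at 60.9, 64.4 and 61.8 with saline, 28.9 with Cont sEV and 40.0, 31.9 and 33.1 with TIS sEV. The saline tumours differed little among themselves and each was well above every vesicle tumour, with -0.89 on the log2 scale (SE 0.17, limma adjusted p = 0.194). Bcl2l11 (BIM), which promotes apoptosis (chromosome 2, 128126038 to 128162547), was at 23.8, 22.4 and 20.5 with saline, 10.3 with Cont sEV and 11.6, 10.8 and 13.5 with TIS sEV. Its difference was -0.89 (SE 0.17), and -0.69 once the length trend was removed.

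Nbeal2, needed for the granules of platelets and neutrophils (chromosome 9, 110624789 to 110654161), had the widest gap of the lower genes with an established symbol and a mean of at least 10 in the higher group. It was at 12.3, 12.7 and 15.4 with saline, 5.11 with Cont sEV and 7.08, 3.59 and 4.37 with TIS sEV, which is -1.29 on the log2 scale (SE 0.23). Yipf4, a Golgi membrane protein (chromosome 17, 74489493 to 74500277), was at 57.0, 62.5 and 61.1 with saline, 28.0 with Cont sEV and 36.2, 17.1 and 23.1 with TIS sEV. Its difference was -1.22 (SE 0.25), and its transcript was not among the long ones, with -1.33 after the length correction. Cxadr, an adhesion protein of epithelial tight junctions and a virus receptor, averaged 6.86 ± 3.00 (n = 4) against 15.2 ± 1.10 (n = 3). Mtss1, which bends membranes at the actin cortex, averaged 16.7 ± 5.01 against 35.2 ± 2.90.

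The other 9 were Tut4, which adds uridines to RNA, the transcription factor Sp3, and Afap1l2, Sipa1l3, Peak1, Fndc3b, Plet1, Usp43 and Irf2bpl. Their log2 differences ran from -1.23 to -0.81. All 15 lower genes stayed separated after length correction, and none passed the limma test. They were separated without size factors too. That setting moved the coding table down by a median of -0.34, so it could hardly undo a lower gap and is no check on these genes.

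Transcript length moved with these results. Separated genes that were higher with vesicles had a median length, taken as the longest coding transcript, of 1707.5 bases, and those that were lower 4450.5, against 2981 for genes that overlapped. In the quartile of genes with the shortest transcripts, 584 were higher and 59 lower (20.6% and 2.08% of that quartile). In the quartile with the longest, 62 were higher and 626 lower (2.18% and 22%). Median GC content was 53.8% in the higher genes, 46.8% in the lower genes and 50.6% in the rest. The gradient was present within single libraries: the shortest quartile minus the longest, as a median log2 difference from the saline mean, was 0.71 with Cont sEV and 0.24, 0.91 and 0.58 with TIS sEV, and 0.11, -0.10 and -0.03 in the saline tumours. All 4 vesicle tumours were above all 3 saline tumours in this measure, and TIS sEV replicate 1 was the nearest to them. The source of this gradient was not tested.

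**Figure D2:**
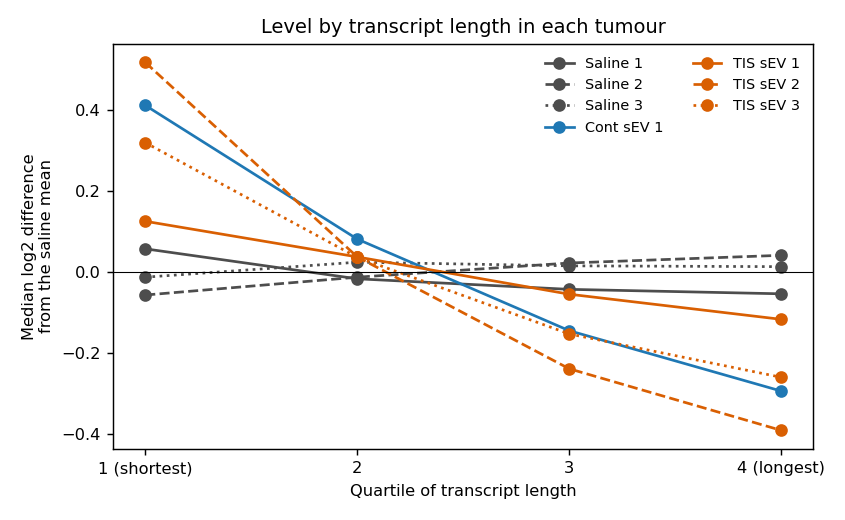
Median log2 difference from the saline mean (vertical axis) of genes in 4 quartiles of transcript length (horizontal axis), 1 line per tumour. The 4 vesicle lines slope downward from the shortest to the longest transcripts, most in TIS sEV replicate 2 (0.52 to -0.39), and the 3 saline lines stay near 0.

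Removing a smooth trend on length from each library, a correction chosen after seeing the data, left 728 genes higher (6.41%) and 935 lower (8.23%). Of these, 519 and 697 were the same genes as before, and Gm15056 was again the only gene past the limma threshold. Median lengths of the higher and lower genes were then 3096.5 and 2971 bases. The correction also takes away any difference that happens to go with length, so corrected medians, counts or overlaps stand beside the uncorrected ones in the groups that follow. The shares to read list counts against are 9.11% higher and 11.2% lower as measured, and 6.41% and 8.23% after correction. For orientation, 47.8% of all tested genes had a difference above 0, and the median over all of them was -0.02, or -0.02 after correction.

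Nuclear genes of the respiratory chain, the mitochondrial complexes that pass electrons to oxygen and drive ATP synthesis, were higher throughout. All 22 members had differences above 0, 15 were separated higher and 0 lower, and the median was 0.77. None passed the limma test, and 19 had an unadjusted p below 0.05. Ndufs6, a subunit of complex I, was at 146, 115 and 120.2 with saline, 289.6 with Cont sEV and 189, 333 and 257 with TIS sEV, which is 1.04 on the log2 scale (SE 0.23). Cox7c of complex IV was at 555, 425 and 449.9 with saline, 1149 with Cont sEV and 585, 964.5 and 884 with TIS sEV. The lowest vesicle tumour in both was TIS sEV replicate 1. These genes are short, with 20 of 22 in the shortest quartile. The median was 0.30 after length correction, with 6 separated (Ndufs4, Ndufs6, Uqcrb, Cox5b, Cox7c and Atp5e), and it was 0.39 with quantile normalization. Ribosomal protein genes, similarly short, had a median of 0.41 with 0 of 23 separated, and -0.02 after correction.

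Among CHCHD proteins, small mitochondrial proteins with paired cysteine motifs, 6 of 11 were separated higher: Chchd2, Chchd4, Chchd6, Chchd10, Cox17 and Cox19. Cox17, which carries copper to cytochrome oxidase (chromosome 16, 38346991 to 38352763), was at 335, 179.6 and 261 with saline, 690.1 with Cont sEV and 367, 558 and 512 with TIS sEV. All vesicle values were higher, although TIS sEV replicate 1 and saline replicate 1 were close. Its difference was 1.05 (SE 0.28) and 1.18 after length correction. That correction used its longest coding transcript, of 3690 bases, and would act otherwise if a shorter one was expressed. The list's median went from 0.61 to 0.22 after correction, with 4 members (Chchd4, Chchd10, Cox17 and Cox19) still separated.

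Proteasome genes were higher with vesicles, with the widest differences in subunits of the immunoproteasome, the form that trims peptides for MHC class I. Of 19 members 18 were above 0 and 10 were separated higher, with a median of 0.67, but none passed the limma test (12 had an unadjusted p below 0.05). Psmb10, a catalytic immunoproteasome subunit (chromosome 8, 105935735 to 105938444), was at 567, 356 and 664 with saline, 2053 with Cont sEV and 785, 1361 and 1613 with TIS sEV. The control vesicle tumour was the highest of the 7. Its difference was 1.42 (SE 0.36), and 1.07 after length correction. Psmb9, another catalytic subunit of that form, was at 302, 153 and 337 with saline, 1230 with Cont sEV and 484, 471 and 651 with TIS sEV (1.39, SE 0.40). Psmb8, the remaining catalytic subunit, overlapped: its lowest vesicle value, 574, lay below saline replicate 3 at 632.

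The activator gene Psme2 was separated (1.10, SE 0.32), and its partner Psme1 overlapped by a little, at 618 in TIS sEV replicate 1 against 627 in saline replicate 3. Among the standard catalytic subunits Psmb5 was at 168, 169.5 and 189 with saline, 463 with Cont sEV and 234, 355 and 356 with TIS sEV (0.96, SE 0.24). Psmb6, Psmb1, Psmb3, Psma3, Psma7 and Psmd4 were separated as well. After length correction the median was 0.33, with 8 members higher and 1, Psma1, lower. With quantile normalization the median was 0.26.

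Interferon-response genes, which share regulators with the immunoproteasome, were not separated by the same rule. Of 20 members 10 were above 0 and 10 below, 0 were separated, and the median was 0.05. After length correction the median was -0.17 and 2 members, Cxcl9 and Iigp1, were separated higher. Cxcl9, an interferon-gamma-induced chemokine, was at 14.2, 11.6 and 17.8 with saline, 50.3 with Cont sEV and 26.4, 16.4 and 39.4 with TIS sEV. Only TIS sEV replicate 2 lay inside the saline range. Without that library, an alternative chosen after seeing the data for the lists, 4 of the 20 members were separated higher (Cxcl9, Iigp1, Irgm1 and Igtp), against 12% of all tested genes, and the median was 0.17, or 0.07 with length correction as well.

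**Figure D3:**
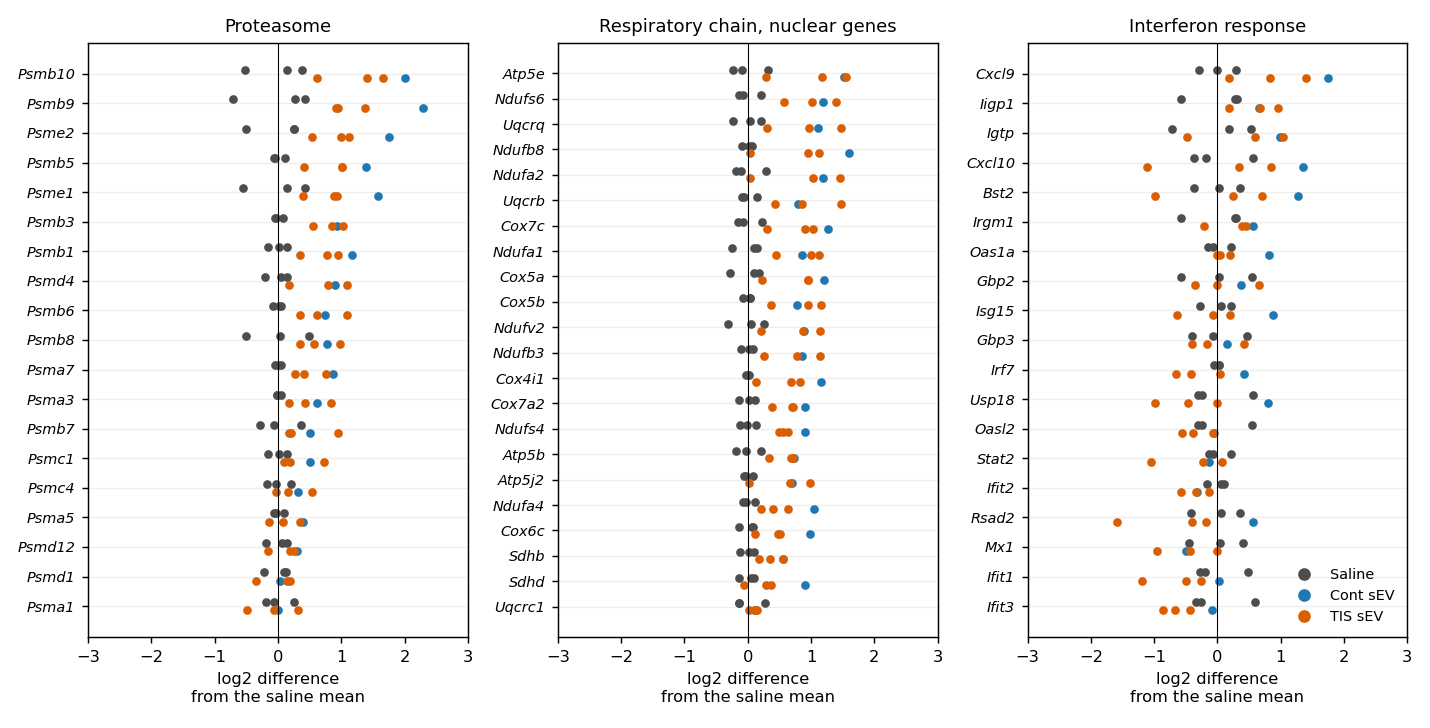
Log2 difference of each tumour from the saline mean (horizontal axis) for the tested members of 3 lists (1 interferon-response member is not drawn), saline in grey, Cont sEV in blue and TIS sEV in orange. Proteasome and respiratory chain genes lie mostly to the right of 0 in vesicle tumours, and the interferon list, with 10 of its 20 members above 0, is spread to both sides.

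Antigen presentation genes depended on the same library. Of 13 MHC class I genes 0 were separated and the median was -0.10, or -0.23 with 1 lower, Pdia3, after length correction. H2-K1, a class I heavy chain, was at 4067, 3221 and 5005 with saline, 6406 with Cont sEV and 5182, 1236 and 5868 with TIS sEV. The vesicle tumours other than TIS sEV replicate 2 were all above saline, and that library was the lowest of the 7. Without it the list's median was 0.41 and 4 members were separated higher (H2-K1, H2-D1, H2-T23 and Tapbp), against 12% of all tested genes, and with length correction as well the median was 0.24. Of 9 MHC class II genes, which present peptides to helper T cells, 0 were separated with all libraries (median 0.53), and 3 without it (H2-Eb1, H2-DMa and H2-DMb1, median 1.08). The median was 0.23 after length correction and 0.74 with both.

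Dendritic cell genes had 4 of 10 tested members separated higher, before and after length correction, with medians of 0.66 and 0.59, against 9.11% and 6.41% of all tested genes. Batf3, a transcription factor of cross-presenting dendritic cells (chromosome 1, 191097847 to 191108945), was at 9.06, 6.13 and 7.10 with saline, 19.0 with Cont sEV and 10.3, 21.2 and 22.96 with TIS sEV (1.16, SE 0.29). TIS sEV replicate 1 was nearest to saline. Irf8, another factor of that lineage (chromosome 8, 120736358 to 120756694), was narrow within groups, from 22.0 to 23.3 with saline and from 30.2 to 35.3 with vesicles. Its difference was 0.52 (SE 0.16). Ccr7, the receptor that guides dendritic cells to lymph nodes, was at 0.141 to 0.677 with saline and 0.989 to 2.33 with vesicles, both low levels. Ccr7 passed the filter through the vesicle tumours alone, so its separation adds no support to the count of 4. Ccl17, a chemokine of mature dendritic cells, was at 3.09, 2.15 and 2.18 with saline, 13.02 with Cont sEV and 5.36, 12.8 and 6.16 with TIS sEV. None of the 4 passed the limma test, and without size factors Irf8 (0.17) and Ccr7 (0.74) overlapped. The summed level of all 14 markers was 116 to 137 with saline and 147 to 204 with vesicles, while Itgax and Zbtb46 had differences of -0.15 and -0.24. Flt3, Xcr1, Clec9a and Siglech, which define dendritic cell subsets, were below the filter, so the list rests on genes that other leukocytes also use. Ptprc, the leukocyte antigen CD45, was separated lower (-0.47, SE 0.23, limma adjusted p = 0.296). It was at 4.58, 6.86 and 4.8 with saline, 3.93 with Cont sEV and 4.22, 2.4 and 4.05 with TIS sEV. Ptprc stayed separated lower after length correction (-0.26). It was also separated without TIS sEV replicate 2 and without size factors, but neither setting could easily undo it. The former leaves fewer values to clear, and the latter shifts coding genes down (median -0.34).

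Chemokines shared a direction more often than separation. Of 22 tested CC and CXC chemokines 19 were above 0, with a median of 0.59. As measured 4 were separated higher (Ccl5, Ccl12, Ccl17 and Cxcl16), against 9.11% of all tested genes. Most of these transcripts are short, with 16 of 22 in the shortest quartile, where 20.6% of all genes were separated higher. After length correction the median was 0.25 and 4 were separated higher, with Cxcl9 in place of Ccl12, against 6.41% of all tested genes. Cxcl16, a membrane-bound chemokine that attracts activated T cells (chromosome 11, 70453983 to 70459984), was at 53.6, 68.5 and 77.7 with saline, 141 with Cont sEV and 91.0, 119.8 and 139.5 with TIS sEV (0.87, SE 0.22), and overlapped without size factors. Ccl12, which attracts monocytes and has close relatives in the same gene cluster, was at 53.1, 75.9 and 70.7 with saline, 116 with Cont sEV and 91.8, 208 and 236 with TIS sEV. Ccl8, a chemokine of resident-type macrophages, had the largest difference of the list, 2.64 (SE 0.73), but overlapped, since saline replicate 2 at 1389 exceeded the control vesicle tumour at 1193.

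Genes of resident-type macrophages and of mast cells lay above 0 and were rarely separated, against 9.11% of all tested genes separated higher. All 12 tested genes of resident-type macrophages were above 0, with a median of 1.13 (0.67 without TIS sEV replicate 2, 0.83 after length correction and 0.24 with both), and 1 was separated. That was Cbr2, a carbonyl reductase, at 44.8, 59.6 and 25.2 with saline, 63.1 with Cont sEV and 97.2, 809 and 296 with TIS sEV. The control vesicle tumour exceeded saline replicate 2 by little, and the groups overlapped after length correction and without size factors. The summed level of the 16 markers ran from 376 to 1710 with saline and from 1440 to 10500 with vesicles. Tumour macrophage and monocyte genes were less uniform: of 18 tested, 12 were above 0 and 6 below, and 0 were separated. Their median was 0.35, or 0.08 after length correction and -0.01 with TIS sEV replicate 2 also left out. All 8 tested mast cell genes were above 0, with a median of 1.95, yet 0 were separated. The mast cell protease Mcpt4 was at 1.99, 4.43 and 0.645 with saline, 3.17 with Cont sEV and 16.9, 7.11 and 19.9 with TIS sEV, so the control vesicle tumour lay within the saline range. The part of such cells in the chemokine values was not tested.

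Jchain, the joining chain of secreted antibodies (chromosome 5, 88519809 to 88527891), was at 0.34, 0.471 and 0.0985 with saline, 3.38 with Cont sEV and 2.65, 26.3 and 4.18 with TIS sEV. All vesicle values were above all saline values, which were below 1 (2.41, SE 0.63, limma adjusted p = 0.194). Jchain thus passed the filter through the vesicle tumours alone, and its separation and test depend on that selection. Of the 13 markers of B and plasma cells only 4 passed the filter, and Xbp1 and Sdc1, which plasma cells share with other cells, had differences of -0.43 and -0.52.

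Cell junction genes were below 0 in 13 of 15 cases, with a median of -0.34 (-0.25 after length correction). As measured 3 were separated lower, against 11.2% of all tested genes, and after correction 1, against 8.23%. The list's median transcript length was 3733 bases. In the length quartile that holds this value, 13.9% of genes were separated lower as measured. Tjp1 (ZO-1), a scaffold of tight junctions (chromosome 7, 65296165 to 65527781), was at 11.8, 14.98 and 17.6 with saline, 3.71 with Cont sEV and 8.31, 3.82 and 4.55 with TIS sEV. Its difference was -1.41 (SE 0.28, limma adjusted p = 0.194), and -1.14 after length correction. Ctnnb1 (beta-catenin) was at 442, 447 and 464 with saline, 280 with Cont sEV and 381, 368 and 370.2 with TIS sEV; it overlapped after correction, which left Tjp1 as the separated member. Epithelial genes as a group did not follow: 0 of 16 were separated, with a median of -0.17.

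Wls, the carrier that takes Wnt proteins to the cell surface and also rides on vesicles (chromosome 3, 159839672 to 159938664), was at 84.9, 149.6 and 130 with saline, 44.6 with Cont sEV and 61.9, 17.5 and 55.3 with TIS sEV. No values overlapped, and the difference was -1.52 (SE 0.42), or -1.13 without TIS sEV replicate 2. Among matrix glycoproteins 3 of 21 were separated lower, near the 11.2% of all tested genes, and 0 higher. Fibronectin (Fn1) was at 996, 1099 and 1298 with saline, 341 with Cont sEV and 681, 128 and 959 with TIS sEV, and Thbs1 and Lamb1 were likewise below every saline tumour. Fn1 and Lamb1 overlapped after length correction, when 2 members were separated lower (Thbs1 and Spp1) and 1 higher (Fbn1). Spp1 (osteopontin) did not separate the groups as measured (-1.80), because TIS sEV replicate 3, at 5705, exceeded the saline tumours at 5249 to 5688, while the other 3 vesicle tumours were at 314 to 2267. Spp1 was separated lower after length correction (-2.08). It was so without size factors too (-2.17), a setting that shifted coding genes down by a median of -0.34.

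Genes of glycolysis and the hypoxia response were below 0 in 17 of 19 cases, with a small median of -0.23 (-0.35 after length correction and -0.59 with quantile normalization). Ldha, which makes lactate (chromosome 7, 46841475 to 46855627), was at 1761, 1767 and 1545 with saline, 1206 with Cont sEV and 1211, 987 and 911 with TIS sEV (-0.66, SE 0.20). Pfkl, a phosphofructokinase subunit, was at 168.6, 179.7 and 169 with saline and from 128 to 136 with vesicles. Pkm was separated by less, from 1663 to 1734 against 1274 to 1598. All 3 stayed separated after length correction, and the groups overlapped for Gapdh, which was above 0 at 0.43.

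Genes that build vesicles are set against the 11.2% of all tested genes separated lower and the 9.11% separated higher. In the list of tetraspanins and vesicle formation 5 of 21 were separated lower (Cd9, Cd81, Pdcd6ip, Tsg101 and Vps4b). Another 2 were higher (Rab11a and Flot1), near the share of all tested genes, and the list's median was -0.05. After length correction 0 were higher and 4 lower (Cd9, Cd81, Cd151 and Tsg101), with a median of -0.13. Cd9, a tetraspanin of the plasma membrane and of vesicles (chromosome 6, 125460266 to 125494791), was at 656, 671.5 and 834 with saline, 536 with Cont sEV and 437, 114 and 420.4 with TIS sEV. Its difference was -1.13 (SE 0.49, limma adjusted p = 0.251), and -0.63 without TIS sEV replicate 2, the lowest library. Pdcd6ip (ALIX), an ESCRT partner, was at 60.4, 58.4 and 63.5 with saline, 40.3 with Cont sEV and 49.2, 46.6 and 38.1 with TIS sEV, and overlapped after length correction. Cd63, another vesicle tetraspanin, overlapped, with a difference of 0.04 (SE 0.29).

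Among genes of endocytosis and uptake 3 of 20 were separated, all higher: Cltb, Ap2m1 and Rab5c, against 9.11% of all tested genes. Ap2m1 (0.32) and Rab5c (0.06) overlapped without size factors, and Rab5c also after length correction. Cltb, a clathrin light chain (chromosome 13, 54592401 to 54611344), was at 33.6, 23.1 and 22.9 with saline, 62.3 with Cont sEV and 50.4, 101.5 and 72.6 with TIS sEV, a difference of 1.38 (SE 0.26) and of 1.277 after correction. Tfeb, the main transcription factor of lysosome genes, was separated higher, from 6.01 to 6.78 against 10.03 to 14.97. Lamp2, a lysosomal membrane protein, was separated lower, at 116, 100.1 and 93.5 with saline and 45.6 to 82.0 with vesicles.

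Genes near Nfe2l2 gave a mixed picture. Of 16 targets of Nrf2 and carbonyl reductases 3 were separated higher (Gstm1, Cbr2 and Akr1b8) and 0 lower, against 9.11% and 11.2% of all tested genes. After length correction Gstm1 alone stayed separated, with Akr1b8 at 0.08, and the median was 0.12. The glutathione synthesis genes Gclc and Gclm were at -0.37 (SE 0.27) and -0.52 (SE 0.34) and overlapped. In the p53 and senescence list 3 of 14 were separated higher (Cdkn1a, Bax and Phlda3) and 3 lower, or 1 higher (Cdkn1a) and 3 lower after length correction. Cdkn1a (p21), which stops the cell cycle, was at 32.9, 27.0 and 30.5 with saline, 41.9 with Cont sEV and 50.7, 56.8 and 36.9 with TIS sEV (0.60, SE 0.20, limma adjusted p = 0.207). Without size factors Cdkn1a (0.24) and Phlda3 (0.22) overlapped. Trp53inp1, which overlapped after length correction, and Bbc3 were among the 3 separated lower as measured. Proapoptotic genes did not share a direction: Bcl2l11, named above, was lower and Bax was higher. Mki67, a marker of dividing cells, overlapped, with a difference of -0.35 (SE 0.39).

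**Figure D4:**
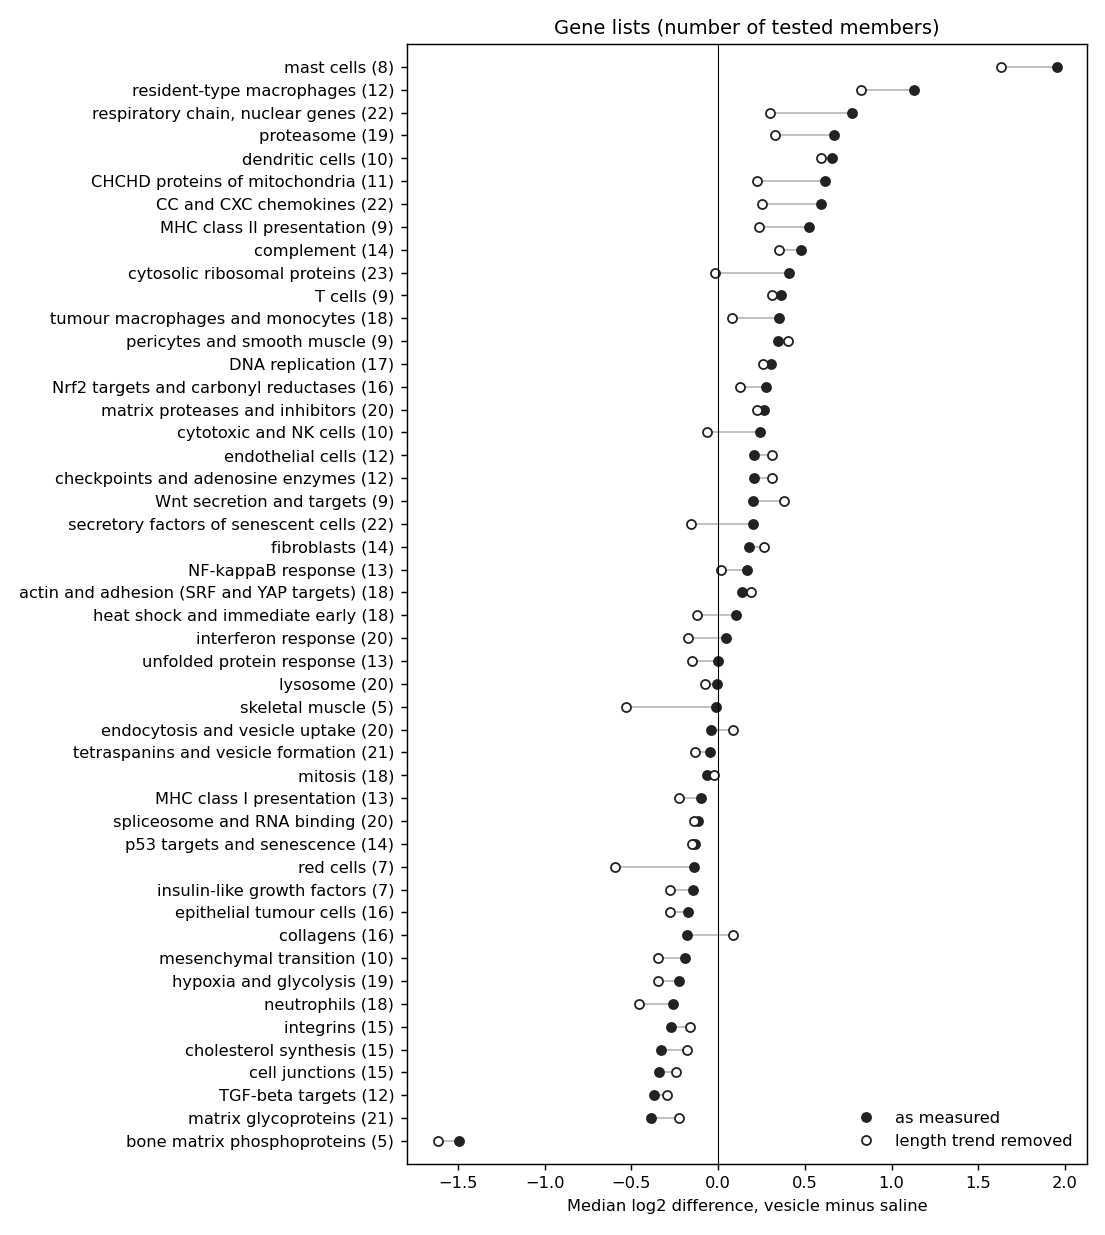
Median log2 difference, vesicle minus saline, over the tested members of each list with at least 5 (number in brackets), as measured (filled) and with the trend on transcript length removed (open). The respiratory chain moves from 0.77 to 0.30 and ribosomal proteins from 0.41 to -0.02, while dendritic cells move from 0.66 to 0.59.

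Control and senescent-cell vesicles were also set against each other, since the pooled group assumes a shared response. No gene passed (0 of 11383, 0%, limma), with a lowest adjusted p of 0.903, and 573 genes had an unadjusted p below 0.05. With 1 control vesicle tumour, whose spread was taken to be that of the others, this does not show that both kinds act alike. For Gm15056 the difference was -0.05 (SE 0.56), and for Serpina3g -0.31 (SE 0.25). Birc5, an inhibitor of apoptosis that peaks in mitosis, was separated higher through 227 in the control vesicle tumour and 103 to 114 in the TIS tumours, against 68.0 to 78.6 with saline.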

How the data were processed

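RNA of 7 primary tumours (3 saline, 1 Cont sEV, 3 TIS sEV) was available as 1 table of gene TPM values that the authors deposited. The submitters' processing notes name Salmon 1.4.0, DESeq2 1.28.0, Trim Galore 0.6.6 and FastQC 0.11.9 and the build GRCm38.p6. The annotation and how transcripts were summed to genes: not given in the sources used here. Depth cannot be read from TPM and is unknown, so counting intervals are not printed. TPM is also a share of a fixed total, so a library rich in ribosomal RNA has lower values for all other genes. Columns named CE and NcE were read as Cont sEV and TIS sEV. Gene types, symbols and coordinates came from GENCODE M21 (GRCm38), which held 55227 of 55487 identifiers with the version dropped.

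Nuclear protein-coding genes were rescaled to 1000000 per library and divided by median-of-ratios size factors over 12956 genes above 0 in every library. Two-sided tests used limma 3.58.1 in R 4.3.3 on log2(scaled TPM + 1) with a mean-variance trend and Benjamini-Hochberg adjustment over all 11383 genes with at least 1 in at least 3 libraries, at a threshold of 0.05. The added 1 makes log2 differences of low genes smaller than their true change. Cont sEV against TIS sEV used a fit with 1 mean per group. Where symbols were shared by several identifiers, the entry with the highest sum was used. The test was checked on simulated data.

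Genes named were those past the threshold, the 15 in each direction with the widest gap among separated genes with an established symbol and a mean of at least 10 in the higher group, up to 4 separated members of each list by size of difference, and 14 fixed genes; members of up to 5 counted were also named, after their values were seen. The genes, the lists and the comparison were chosen with earlier results of these data known. Families with near-identical copies (Serpina3, Gstm, Nme, defensins, mast cell proteases, CC chemokines) have uncertain values. Motifs were searched in RefSeq windows (GRCm38.p6). The kappaB and interferon forms printed replaced stricter ones that were searched first. Alternatives covered scaling, pseudocount, filter, gene set, replicate block, array weights, variance trend, single libraries left out and, added after seeing the data, transcript length. Samples with the same number did not deviate together, so numbers were not used as pairs. Some genes are not reported here.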

Additional observations from a re-analysis of the deposited data

Results flagged for a closer look

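In 10 of 104 genes examined, 1 of the 4 vesicle tumours stood apart from the other 3 on the log2 scale, by a gap that took most of the group's range. Chance alone gives about 1 in 20 such groups, and saline groups of 3 were not examined. TIS sEV replicate 2 was the low tumour in 7 of the 10. It was at 2.42 scaled TPM for Cxadr (others 7.73 to 8.89), 1.8 for Thbs1 (11.2 to 13.3), 19.3 for Lamb1 (86.2 to 92.7), 114 for Cd9 (420.4 to 536), 37.2 for Cd81 (75.9 to 82.1), 5.02 for Dnajb9, a chaperone of the endoplasmic reticulum (9.22 to 9.72), and 2.4 for Ptprc, the leukocyte antigen CD45 (3.93 to 4.22). The control vesicle tumour stood apart in the other 3: high for Msh5 at 27.5 (12.2 to 13) and Birc5 at 227 (103 to 114), and low for Ctnnb1 at 280 (368 to 381).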

How the results depend on the processing

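Pseudocounts of 0.1 and 5, quantile normalization, a filter of 5 and the length correction each left 1 gene past the threshold, as did the fit with a replicate block (1 gene). Same-numbered saline and TIS sEV samples correlated at r = -0.288, -0.021 and -0.049 in their deviations, so the numbers were not used as pairs. These values do not decide whether equal numbers mark a shared processing step. The count was 2 without size factors, 2 with no filter, 2 without the variance trend, 4 with array weights, 0 over all deposited genes, 0 in the 3-group fit and 0 with length correction and TIS sEV replicate 2 left out together, and 0 to 77 with single libraries left out. Separated genes numbered 2737 to 3851 with single libraries left out, in part because fewer values must clear each other, and 1663 with length correction against 2312. For Cont sEV against TIS sEV the count of 0 became 1 with a pseudocount of 5, 79 with no filter, where genes near 0 enter, and 1 over all deposited genes. Among single genes the direction turned in 4, whose main differences were within their standard error: Prx (-0.16 as reported) was 0.0701 after length correction and 0.0686 with TIS sEV replicate 2 also left out, and Mki67 was 0.20 in the latter. Epcam was 0.0862 in the 3-group fit and -0.53 to 0.29 with single libraries left out (above 0 without saline replicate 3 or TIS sEV replicate 3). Krt8 was -0.47 to 0.0127 with single libraries left out (above 0 without saline replicate 2 or 3 or TIS sEV replicate 1). The causes were not tested. Unknown depth limits what can be said of genes near 0.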

Other observations

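Some gene groups not described above are given here, beside the 9.11% of all tested genes separated higher and the 11.2% separated lower. The remaining groups are not described in the text. Of 18 neutrophil genes 14 were below 0 and 1, the receptor Trem1, was separated lower, at 4.71 to 6.15 with saline and 2.66 to 4.68 with vesicles, and overlapping after length correction. The calprotectin gene S100a8 was at 2771, 621 and 338 with saline, 206 with Cont sEV and 631, 1424 and 757 with TIS sEV, so saline replicate 1 was the highest of all. Of 20 genes for splicing and RNA binding 5 were separated lower and 1 higher, or 3 and 0 after length correction. Among the lower genes was the RNA helicase Ddx5 at 238, 286 and 247 with saline, 131 with Cont sEV and 196, 182 and 119 with TIS sEV (-0.74, SE 0.22). The growth factor receptors Igf1r and Igf2r were separated lower, Igf1r at 7.85 to 9.11 with saline and 1.16 to 7.52 with vesicles, and both overlapped after length correction. The immune checkpoint ligand Pdcd1lg2 was separated higher, at 2.20, 4.20 and 4.33 with saline, 7.24 with Cont sEV and 7.81, 9.86 and 8.58 with TIS sEV (1.06, SE 0.24, limma adjusted p = 0.194). Nt5e (CD73), which makes adenosine, was separated lower, at 137 to 227 with saline and 30.8 to 132 with vesicles, and overlapped after length correction. The cytokine gene Il6 was at 0.984 to 1.37 with saline and 1.48 to 4.65 with vesicles, which overlapped after length correction and without size factors. None of these genes passed the test over all coding genes.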
